A study of Helianthus annuus with 12 samples.

Results

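The response of sunflower leaves to osmotic stress was described from 6 small RNA libraries, 3 of PEG leaves and 3 of control leaves, out of 12 libraries from leaves and roots. The plants were Helianthus annuus of the cultivar R5, which the submitters call tolerant to drought, grown in soil to the 4-leaf stage. For the PEG leaves, whole seedlings were moved for 24 h into water with 15% polyethylene glycol (PEG 6000), which makes water harder for roots to take up and so imitates drought. For the control leaves, seedlings stood in distilled water alongside and were collected at the same time. Both groups had therefore been taken out of soil, and leaves of plants left in soil were not analysed here. The labels do not say whether the 3 libraries of a group came from separate plants or from pools. The p-values therefore speak of the spread among libraries and of nothing wider. In the edgeR fits that spread was estimated over all 12 libraries, roots included. A leaf holds many cell types, and a lower level cannot be divided here into fewer cells of a type and less of the small RNA per cell.

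MicroRNAs are short RNAs cut by DICER-LIKE enzymes from hairpin precursors and loaded into ARGONAUTE proteins. In plants they pair almost perfectly with their targets, which are cut or less translated, and many of the targets of old, conserved families encode transcription factors and auxin signalling proteins. Small interfering RNAs (siRNAs) come from double-stranded RNA, and many of them guide DNA methylation at transposons and repeats. MicroRNA families that target auxin response factors, growth-regulating factors and GRAS proteins are known to change with drought in leaves of several plants.

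Members were taken by annotation and not by level. Of the 15903 entries in the deposited count table, 3 count reads in exons, introns and intergenic sequence and were left out, and 15308 are described here. They are 163 known microRNA names in 38 families, 90 predicted microRNAs and 15055 siRNAs. Only 15 of the known names carry a sunflower name, and the others are listed under names from other plants. Total counts were 31831859, 30922418 and 33426228 in PEG leaves and 31583451, 32131060 and 33154566 in control leaves. The 3 entries left out held between 79.7% and 83.0% of each total.

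Known microRNAs held 7.80%, 8.53% and 10.03% of all counts in PEG leaves, and 8.87%, 9.12% and 9.33% in control leaves. The groups overlapped (8.79% ± 1.13 against 9.11% ± 0.227, SD, n = 3 each; two-sided exact permutation p = 0.7, where 0.1 is the smallest p that 3 against 3 libraries allow). Predicted microRNAs held 3.03%, 2.68% and 3.75% in PEG leaves and 2.43%, 2.32% and 3.05% in control leaves (exact permutation p = 0.3). siRNAs held 5.73%, 5.55% and 6.19% in PEG leaves and 6.10%, 6.43% and 5.78% in control leaves (exact permutation p = 0.4). None of these classes separated the groups as a share of all counts. As a share of the counts in named entries, known microRNAs stood at 45.9%, 49.2% and 49.3% in PEG leaves, against 50.1%, 50.4% and 50.1% in control leaves, which did not overlap (exact permutation p = 0.1).

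In CPM of all microRNA counts after TMM scaling, predicted microRNAs in control leaf library 3 lay closer to the PEG leaves than those in libraries 1 and 2. The TMM factors were 1.54, 1.08 and 0.758 for control leaf libraries 1, 2 and 3. The low factor raised levels in library 3. novel_mir33, with 21399, 20732 and 18628 counts in control leaves, was highest in library 3 only after scaling. novel_mir9, with 6300, 3996 and 14700, was highest there in counts too. How many of the ranks below rest on scaling was not tested. Of 78 predicted microRNAs with any count in control leaves, control leaf library 3 was the highest control library in 62 on this scale. It lay at or above the lowest PEG leaf library for 63 of these 78, against 12 for control leaf library 1 and 31 for control leaf library 2. Predicted microRNAs that are abundant in roots moved with it: in the 10 most abundant in control roots at over 20 times their control leaf level, the median level was 3.25%, 3.71% and 4.96% of the control root mean in PEG leaves and 1.12%, 0.932% and 4.39% in control leaves. These 10 were chosen partly by a low level in control leaves. Among the 10 predicted microRNAs highest in control roots, with no filter on leaves and 6 of them the same, the median was 6.57%, 8.62% and 5.95% in PEG leaves and 2.02%, 1.60% and 8.04% in control leaves, so the order of the control libraries was kept. All of these loci were above 0 in every leaf library, and the part of these differences in the results below was not tested. Where the call of a family with values per library below depends on control leaf library 3, the fit without that library is given beside it. That library was singled out by its levels, so a pass without it is no support for a change. Without control leaf library 1 or 2, 0 families were called. Animal microRNA precursors, a check for foreign RNA, held 0.0120% to 0.0176% of named counts in PEG leaves and 0.0142% to 0.0158% in control leaves.

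Levels were compared per microRNA family, by summing the names of a family, and per name. A family or name was called when the edgeR quasi-likelihood test gave an adjusted p under 0.05, and family levels are in CPM of all microRNA counts after TMM scaling. Groups are said not to overlap when every PEG leaf library lay on the same side of every control leaf library in CPM. Families were judged on the family scale. Names and single entries were judged in CPM of all tested entries, with TMM factors of their own, so the same locus can differ between the scales. By family, 4 of 124 passed (3.23%), all higher in PEG leaves: miR160 and the predicted novel_mir21, novel_mir25 and novel_mir12. At an unadjusted p under 0.05 there were 22 (17.7%). By name, 0 of 10604 entries passed (0%), with 382 at an unadjusted p under 0.05 (3.6%), whereas DESeq2 called 28 and limma voom 181. The median log2 fold change over all 124 families was 0.35, a shift that was 0.18 with library totals alone and 0.03 with RLE scaling, so small positive values are not read as changes.

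Among known families, 34 of 38 had enough counts to be tested and 1 was called. The libraries did not overlap for 10 of the 34 (29.4%), 9 higher and 1 lower in PEG leaves, against 21% of all 124 families (18.5% higher and 2.42% lower). The 4 untested families were miR414, miR1171, miR1511 and miR5658, with at most 11 counts in any leaf library.

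**Figure D1:**
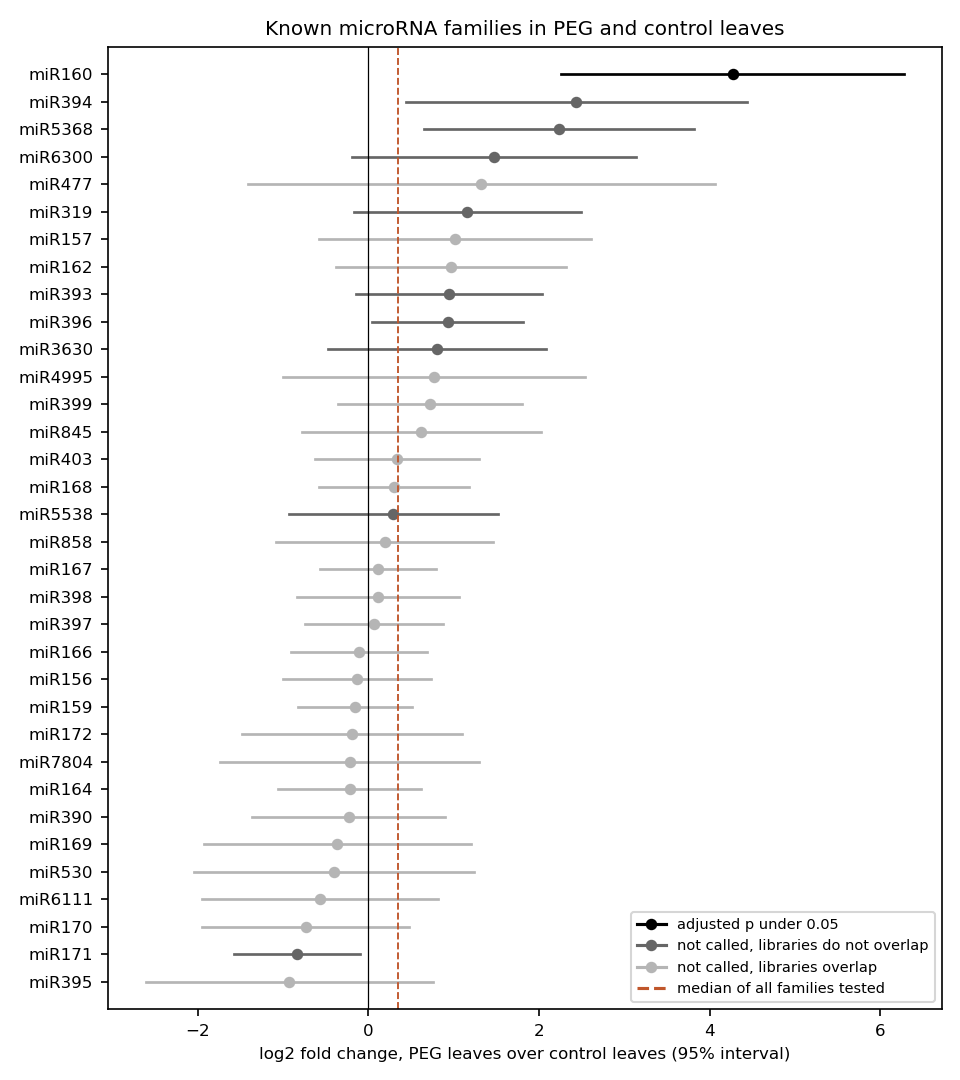
Log2 fold change of each tested known family in PEG leaves over control leaves, with the 95% interval of the edgeR fit over 12 libraries; black marks a called family, dark grey one whose libraries do not overlap, light grey the rest, and the dashed line the median of all 124 families tested. miR160 stands apart at 4.27, and miR171 is the one family on the lower side whose libraries do not overlap.

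Among the auxin families miR160 was called, with the largest log2 fold change of the 34 tested known families. It cuts transcripts of repressing auxin response factors, the proteins that hold auxin-responsive genes off. Its 7 names together had 15878, 7789 and 23545 counts in PEG leaves and 893, 617 and 1183 in control leaves. The lowest PEG leaf library was thus well above the highest control leaf library. In CPM it averaged 4483 ± 2157 in PEG leaves and 232 ± 128 in control leaves (SD, n = 3 each), 19.3-fold higher, and the log2 fold change was 4.27 (SE 0.93, 95% interval 2.26 to 6.28, adjusted p = 0.0324, edgeR). Set against its mean in control roots, miR160 was at 1270% of that level in PEG leaves and at 65.8% in control leaves. In roots its log2 fold change with PEG was 0.84, and the difference of the leaf and root changes, 3.43, did not pass (adjusted p = 0.119, edgeR). These percentages and the root change lean on control root library 2. The main name in control roots, miR160a-5p, had 164, 2285 and 60 counts there and 34, 74 and 26 in PEG roots. The name miR160 had 6, 23 and 2 counts in control roots and 1138, 2291 and 2010 in PEG roots. The call ended without PEG leaf library 3, without control leaf library 1 or 2, and with the TMM factors of all named entries, while the log2 fold change stayed between 3.72 and 4.82 over 19 settings.

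The rise was not shared by all miR160 names. miR160b_1, which carries a sunflower name, had 156, 149 and 413 counts in PEG leaves and 59, 22 and 61 in control leaves. miR160_1 had 6, 57 and 30 counts in PEG leaves and 0, 1 and 0 in control leaves. Both separated the groups. miR160a-3p_1, the name on the opposite arm of the hairpin, had 33, 52 and 108 counts in PEG leaves and 103, 114 and 56 in control leaves, and overlapped. The mir-160 precursor entry of the Rfam collection had 11, 6 and 15 counts in PEG leaves and 3, 4 and 1 in control leaves, too few to be tested. Those precursor counts did not overlap and lay on the same side as the mature sum.

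The other 3 auxin families were not called. miR393 targets the TIR1/AFB auxin receptors and had 2843, 3344 and 4688 counts in PEG leaves and 2592, 1681 and 2252 in control leaves. These did not overlap, and the log2 fold change of 0.94 (SE 0.50) did not pass (adjusted p = 0.296). Within it, miR393a-5p, which carries a sunflower name, had 327, 445 and 1115 counts in PEG leaves and 136, 36 and 96 in control leaves, a log2 fold change of 2.94 that did not pass by name (adjusted p = 0.703). miR167, which cuts transcripts of activating auxin response factors, had 362949, 370795 and 520202 counts in PEG leaves and 521416, 512439 and 337147 in control leaves. It overlapped, and its log2 fold change was 0.11, or -0.28 with RLE scaling. miR390, which starts the trans-acting siRNAs aimed at auxin response factors, had a log2 fold change of -0.23 with overlapping libraries. Of the 4 auxin families 1 was called, miR160, against 3.23% of all families. Without overlap 2 lay higher and 0 lower, against 18.5% and 2.42% of all families. Their median log2 fold change was 0.53 against 0.35 over all families.

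Of the families aimed at transcription factors, 2 of 12 lay higher and 1 lower in PEG leaves without overlap (18.5% and 2.42% of all families), and none passed the test. The first of these, miR396, targets growth-regulating factors, which promote cell division in young leaves. It had 199864, 246100 and 405498 counts in PEG leaves and 191312, 188707 and 141633 in control leaves. The groups were close in counts and further apart after scaling, where the lowest PEG leaf library had 57734 CPM and the highest control leaf library 47349 CPM. The log2 fold change was 0.93 (SE 0.41, adjusted p = 0.274). The name miR396f_1 held most of it, with 179926, 228188 and 388648 counts in PEG leaves and 174736, 167747 and 123104 in control leaves.

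Within miR396 the summed 5p names lay lower in PEG leaves without overlap in counts, and the summed 3p names leaned higher but overlapped. The 3 names labelled 5p summed to 6444, 4471 and 5799 counts in PEG leaves and 11318, 15021 and 8955 in control leaves. The 4 names labelled 3p summed to 11566, 11158 and 7911 counts in PEG leaves and 3943, 4262 and 8229 in control leaves. The 3p sums overlapped through control leaf library 3. As a share of the counts with a labelled arm, 5p was 35.8%, 28.6% and 42.3% in PEG leaves and 74.2%, 77.9% and 52.1% in control leaves. This share did not overlap, and control leaf library 3 was again the control nearest to PEG. The sums are carried by miR396b-5p and the miR396a-3p names, and single names went the other way. The 5p name miR396g-5p_1 had 343, 281 and 333 counts in PEG leaves and 188, 127 and 254 in control leaves, and the 3p name miR396g-3p had 3, 24 and 3 in PEG leaves and 28, 32 and 19 in control leaves. The arms were compared after their values had been seen, and miR396f_1 has no labelled arm.

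miR394 targets the transcript of an F-box protein that shapes leaf form and the shoot meristem. It had 1811, 666 and 1452 counts in PEG leaves and 148, 130 and 461 in control leaves. Its groups did not overlap, with a log2 fold change of 2.44 (SE 0.92, adjusted p = 0.183) in which control leaf library 3 was the highest control. The name miR394a, labelled 5p, had 1687, 574 and 1311 counts in PEG leaves and 116, 69 and 350 in control leaves, and the 5p share of miR394 was 93.2%, 86.3% and 90.4% in PEG leaves and 78.4%, 53.1% and 75.9% in control leaves. Without control leaf library 3 miR394 passed (3.65, adjusted p = 0.0243, edgeR), as it did in DESeq2 and when known families were tested alone. Without control leaf library 1 or 2 it did not pass.

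miR171 targets GRAS proteins of the SCARECROW-like group, which act in meristem maintenance and chlorophyll synthesis. It was the 1 known family whose libraries all lay lower in PEG leaves (2.94% of those tested). It had 25600, 26102 and 20449 counts in PEG leaves and 46020, 57947 and 44174 in control leaves, and in CPM 7395, 7625 and 5720 in PEG leaves and 8350, 14540 and 14200 in control leaves. The groups were well apart in counts and only just apart after scaling, through control leaf library 1. The log2 fold change of -0.84 (SE 0.34, 95% interval -1.58 to -0.10) did not pass (adjusted p = 0.224), but was -1.17 with RLE scaling, where it passed. Control leaf library 3 lay with the other controls here. In roots the log2 fold change of miR171 with PEG was 0.34, and the difference of the leaf and root changes was not called (-1.18, adjusted p = 0.191).

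Several names of miR171 lay lower as well. Of its 12 tested names 5 were lower in PEG leaves without overlap and 1 was higher, against 6.98% and 19.4% of all tested known names. miR171b_2, the most abundant, had 19851, 20691 and 15177 counts in PEG leaves and 32082, 39301 and 32130 in control leaves. miR171f_3 had 1959, 1845 and 1165 counts in PEG leaves and 3975, 5011 and 4045 in control leaves, a log2 fold change of -1.24. For the low miR171e-5p there were 18, 14 and 7 counts in PEG leaves and 42, 42 and 47 in control leaves (-1.59). miR171d_1 had 37, 30 and 17 counts in PEG leaves and 49, 56 and 81 in control leaves. Against this, miR171a_1 had 450, 263 and 678 counts in PEG leaves and 247, 266 and 215 in control leaves, and its groups separate only after scaling. Among the 16 names picked out by size, miR170-5p of the sister family miR170 had 2761, 3174 and 2744 counts in PEG leaves and 4384, 5216 and 6362 in control leaves (-0.73). None of these names passed (adjusted p between 0.703 and 1, edgeR).

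**Figure D2:**
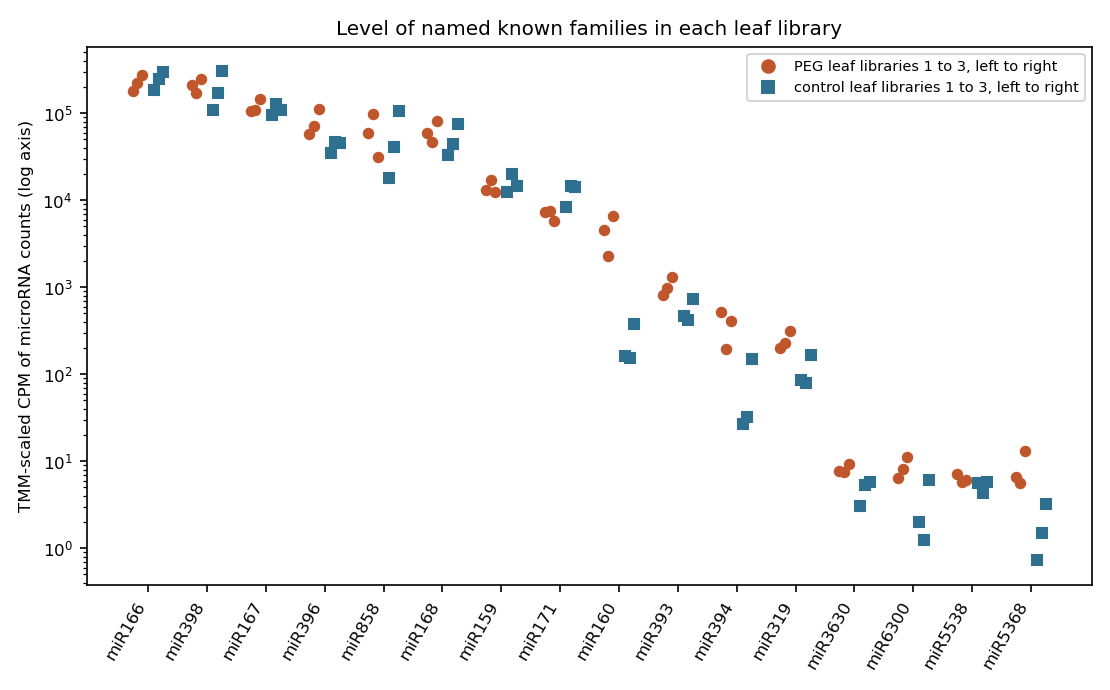
Level of each named known family in each leaf library, in TMM-scaled CPM on a log axis, with circles for PEG leaves left of squares for control leaves. miR160 and miR394 lie higher in all PEG leaf libraries, miR171 lies lower, and the abundant miR166, miR398, miR167, miR858, miR168 and miR159 overlap.

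miR319 targets TCP transcription factors, which control the switch from cell division to expansion in leaves. It had 695, 787 and 1116 counts in PEG leaves and 471, 318 and 520 in control leaves, without overlap, and its log2 fold change of 1.16 (SE 0.61) did not pass (adjusted p = 0.296). Its name miR319c_3 accounted for much of it, with 371, 381 and 430 counts in PEG leaves and 91, 41 and 211 in control leaves. miR319 is richer in roots, and stood at 29.3% of its control root level in PEG leaves and 13.1% in control leaves. Over the 12 tested families that target transcription factors, 0 were called, 4 had a positive log2 fold change, and the median was -0.14 against 0.35 over all families.

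Other abundant families of this list, miR166, miR858 and miR159, overlapped between the groups. miR166, which limits HD-ZIP III transcription factors and so sets the upper and lower side of the leaf, had 626821, 764928 and 974461 counts in PEG leaves and 1012752, 985312 and 938371 in control leaves (log2 fold change -0.11). miR159, which restrains MYB factors of the gibberellin response, had 45564, 57904 and 43915 counts in PEG leaves and 69251, 79616 and 45796 in control leaves (-0.16). The spread of miR858, which targets MYB factors of flavonoid synthesis, was the widest of the 8 most abundant families: 203436, 338956 and 111002 counts in PEG leaves and 99917, 161466 and 331861 in control leaves (0.19, or -0.01 with RLE scaling). The remaining families of the list had log2 fold changes of -0.13 for miR156 and 1.01 for miR157, both aimed at SPL genes of phase change, -0.22 for miR164 (NAC factors), -0.36 for miR169 (NF-YA), -0.74 for miR170 (GRAS) and -0.20 for miR172 (AP2 factors). All of these overlapped on the family scale. miR170, which holds the 1 name miR170-5p, lay lower without overlap as a single name and per all counts, and DESeq2 called it. The single name miR156 was lower, with 1848, 1002 and 2847 counts in PEG leaves and 12373, 4605 and 9675 in control leaves, while the sum of the miR156 names was 15432, 23274 and 19798 in PEG leaves and 26159, 25439 and 22541 in control leaves.

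Families of metal and nutrient balance did not separate by family. miR398 targets copper/zinc superoxide dismutase and was among the most abundant, with 728985, 581894 and 882407 counts in PEG leaves and 602834, 673933 and 941173 in control leaves (log2 fold change 0.11, or -0.14 with RLE scaling). Its minor name miR398a-3p_1 had 284, 314 and 1993 counts in PEG leaves and 58, 122 and 35 in control leaves (3.76, adjusted p = 0.703). That name held at most 0.226% of its family in any leaf library. miR397, which targets laccases, stood at 0.07, or -0.20 with RLE scaling. miR399, which protects phosphate uptake by lowering the ubiquitin-conjugating enzyme PHO2, stood at 0.72 with overlapping libraries, and 4 of its 7 names lay higher in all PEG leaf libraries, against 19.4% of all tested known names. miR395, which acts on sulphate assimilation, had 30, 110 and 146 counts in PEG leaves and 122, 343 and 146 in control leaves (-0.92). Of the copper families 0 of 2 were called, with a median of 0.09, and of the phosphate and sulphate families 0 of 2, with a median of -0.10.

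Families that act on the small RNA machinery were not called either. miR168, which limits ARGONAUTE1, had 205884, 161561 and 291066 counts in PEG leaves and 183814, 177505 and 232565 in control leaves (log2 fold change 0.30, or 0.02 with RLE scaling). The Rfam entry of its precursor had 884, 2392 and 3678 counts in PEG leaves and 908, 813 and 1136 in control leaves, overlapping through PEG leaf library 1 (1.43, adjusted p = 0.703). miR162, which targets DICER-LIKE1, stood at 0.97 and miR403, which targets ARGONAUTE2, at 0.33, both with overlap. Over this list 0 of 3 were called, with a median of 0.33. Of the 18 tested families known from drought and abscisic acid responses, 1 was called, miR160, against 3.23% of all families. Without overlap 5 lay higher and 1 lower, against 18.5% and 2.42% of all families. The median was -0.02, below that of all families. No name of the NLR-regulating families miR472, miR482 or miR2118 was among the entries described.

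The last separated families were rare. miR5368 had 23, 19 and 47 counts in PEG leaves and 4, 6 and 10 in control leaves (log2 fold change 2.24, SE 0.73, adjusted p = 0.146). Without control leaf library 3 miR5368 passed (2.90, adjusted p = 0.0243, edgeR), as it did in DESeq2 and when known families were tested alone. Without control leaf library 1 or 2 it did not pass. miR6300, the 1 entry of hairpin type, had 22, 28 and 40 counts in PEG leaves and 11, 5 and 19 in control leaves (1.47, adjusted p = 0.296). It is a root-rich family, at 2.47% of its control root level in PEG leaves and 0.897% in control leaves. miR3630 had 27, 26 and 33 counts in PEG leaves and 17, 21 and 18 in control leaves (0.80, adjusted p = 0.488). miR5538, at 25, 20 and 22 counts in PEG leaves and 31, 17 and 18 in control leaves, separated only after scaling and had the opposite sign with RLE scaling. Of the other tested families, miR477 had a log2 fold change of 1.32, miR845 0.62, miR4995 0.77, miR530 -0.40, miR6111 -0.57 and miR7804 -0.22, all with overlap.

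Reads of some families were not spread over names in the same way in every library. In 11 pairs of names of the same family, one name held over 80% of the pair's counts in some leaf libraries and under 20% in others, while the sum of the pair varied less than 50% as much within groups as either name. The pairs were found after the values had been seen and fall in 7 families, and in 5 of them each name held over 80% in 3 libraries. A steady sum is thus part of how they were chosen. For miR160, the name miR160 had 15356, 64 and 22598 counts in PEG leaves and 19, 6 and 1021 in control leaves. Its partner miR160a-5p had 319, 7453 and 367 counts in PEG leaves and 692, 459 and 32 in control leaves. Neither name separated the groups, and their sum did, at 15675, 7517 and 22965 in PEG leaves and 711, 465 and 1053 in control leaves.

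Names also held the reads in turns in the largest family. miR166u had 709, 435788 and 579214 counts in PEG leaves and 1479, 650545 and 1474 in control leaves, and miR166h-3p_1 had 352970, 382 and 432 in PEG leaves and 643713, 362 and 584058 in control leaves. Together they had 353679, 436170 and 579646 counts in PEG leaves and 645192, 650907 and 585532 in control leaves. This sum overlapped after scaling, with a log2 fold change of -0.31 (SE 0.28). For miR167, miR167d-5p held 98.7%, 2.6% and 98.2% of the pair with miR167d_1 in PEG leaves and 1.5%, 99.0% and 2.9% in control leaves, and the pair made up 97.2% of the family in the median library. The libraries in which a name led differed from pair to pair. A name of such a pair, taken alone, could therefore look many times higher or lower in a library whose family sum was like the others.

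A pair within miR171 separated the groups. miR171b-3p_3 had 22, 2963 and 3200 counts in PEG leaves and 410, 12563 and 411 in control leaves, and miR171b-3p had 3039, 97 and 41 in PEG leaves and 8893, 379 and 6932 in control leaves. Summed, they had 3061, 3060 and 3241 counts in PEG leaves and 9303, 12942 and 7343 in control leaves. Each PEG leaf sum lay below every control leaf sum, with a log2 fold change of -1.50 that did not pass over all entries (adjusted p = 0.699, edgeR). Its SE of 0.27 is no measure of reliability, since the pair was chosen for a small spread of its sum within groups. With the 10 pairs that share no name summed before the fit, 0 entries passed and 387 had an unadjusted p under 0.05, and edgeR was the tool. In miR396 the pair miR396a-3p_1 and miR396a-3p_2 summed to 9771, 9351 and 6430 counts in PEG leaves and 3277, 3489 and 7001 in control leaves. This sum overlapped through control leaf library 3.

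**Figure D3:**
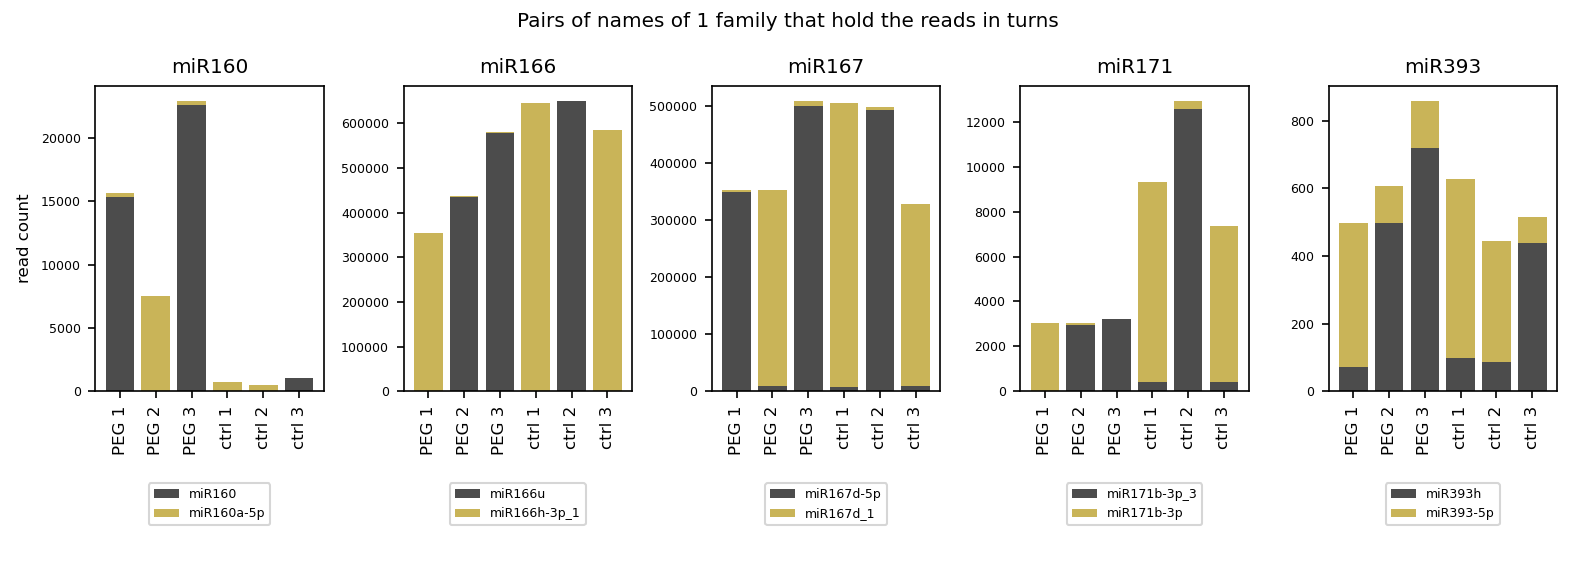
Read counts of 5 pairs of names of the same family in each leaf library, PEG leaves left of control leaves, stacked so that the bar height is the pair's sum. The pairs were chosen for a name that holds the reads changing between libraries and a sum that varies less; the miR171 sums lie between 3060 and 3241 in PEG leaves and between 7343 and 12942 in control leaves.

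Single names were also compared as listed. Of 129 tested known names 34 did not overlap between the groups (26.4%), 25 higher (19.4%) and 9 lower (6.98%) in PEG leaves, against 11.7% of all 10604 entries (6.21% higher and 5.51% lower). Some of these differences stood between names of the same family. miR396a-5p had 15, 66 and 84 counts in PEG leaves and 915, 566 and 300 in control leaves (log2 fold change -3.27), and miR396b had 571, 633 and 1123 in PEG leaves and 25, 350 and 368 in control leaves (1.81). They form 1 of the 11 pairs, and their sum overlapped, at 586, 699 and 1207 counts in PEG leaves and 940, 916 and 668 in control leaves. miR396b-5p, the main 5p name, had 6086, 4124 and 5382 counts in PEG leaves and 10215, 14328 and 8401 in control leaves (-0.92, adjusted p = 1).

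Predicted microRNAs are loci that carry only a running number, and the deposited table gives them a position but neither a target nor a homologue. Their 90 loci were all tested, 9 were at 0 in all leaf libraries and 77 were above 0 in all of them. No nonzero count under 10 occurs among predicted microRNAs or siRNAs, so a 0 in these classes may stand for up to 9 reads. As families, 14 of the 90 lay higher and 2 lower in PEG leaves without overlap, against 18.5% and 2.42% of all 124 families. As single entries 23 of 90 did not overlap (25.6%), 17 higher (18.9%) and 6 lower (6.67%), against 6.21% higher and 5.51% lower of all 10604 entries. The median log2 fold change of the 90 was 0.39.

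Of the called loci novel_mir21 was the most abundant. It had 20306, 12687 and 57660 counts in PEG leaves and 2651, 1422 and 4785 in control leaves, so the lowest PEG leaf library was above the highest control leaf library. The log2 fold change was 3.44 (SE 0.68, 95% interval 1.96 to 4.91, adjusted p = 0.0300, edgeR), 10.8-fold by the means. It reached 314% of its mean in control roots in PEG leaves, against 29.0% in control leaves, and its log2 fold change in roots was -0.12. The difference of the leaf and root changes, 3.55, did not pass (adjusted p = 0.0737). Without control leaf library 1 or 2, or with leaf libraries alone, it was not called, and its log2 fold change ranged from 2.78 to 4.35 over 18 settings.

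The other called loci were rare in leaves. novel_mir25 had 52, 82 and 268 counts in PEG leaves and 0, 0 and 10 in control leaves (adjusted p = 0.0466). It reached 16.8% of its control root level in PEG leaves, and its fitted log2 fold change of 5.23 depends on the zeros. novel_mir12 had 0, 45 and 33 counts in PEG leaves and 0, 0 and 0 in control leaves (adjusted p = 0.0466). Taking 9 counts for each control leaf library, it was at least 3.30-fold higher in PEG leaves, where it stood at 1.36% of its control root level. With zeros set to 9 novel_mir25 was still called and novel_mir12 was not. Neither was called without PEG leaf library 3, without control leaf library 1 or 2, with RLE scaling, with leaf libraries alone or with the TMM factors of all named entries. The call of novel_mir12 was the less stable, in 6 of 16 settings against 12 of 18 for novel_mir25. Its groups also overlapped, through the 0 in PEG leaf library 1.

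Most of the other separated loci showed the same order of libraries. novel_mir10 had 6644, 5855 and 19439 counts in PEG leaves and 2231, 2131 and 5115 in control leaves (log2 fold change 1.81, adjusted p = 0.136). novel_mir38 had 223, 284 and 364 counts in PEG leaves and 53, 21 and 183 in control leaves (1.76, adjusted p = 0.274). novel_mir6 had 504, 634 and 577 counts in PEG leaves and 101, 73 and 369 in control leaves (1.67, adjusted p = 0.296). In each of these control leaf library 3 was the highest control. novel_mir73 had 2572, 3308 and 3740 counts in PEG leaves and 1183, 727 and 2133 in control leaves (1.35, adjusted p = 0.155), and novel_mir89 1623, 2531 and 1645 in PEG leaves and 751, 361 and 1345 in control leaves (1.34, adjusted p = 0.220). novel_mir69 had 381, 402 and 825 counts in PEG leaves and 330, 109 and 254 in control leaves (1.44, adjusted p = 0.155). novel_mir10, novel_mir69 and novel_mir73 are among the 10 root-rich loci above, and novel_mir38 stood at 2.08% of its control root level in PEG leaves and 0.615% in control leaves. Without control leaf library 3, when 25 families passed, all 6 passed, with log2 fold changes of 2.69 for novel_mir10, 3.47 for novel_mir38, 3.16 for novel_mir6, 2.21 for novel_mir73, 2.29 for novel_mir89 and 1.81 for novel_mir69. These passes are no support, since that library was left out for lying near the PEG leaves. Without control leaf library 1 or 2, 0 families passed.

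**Figure D4:**
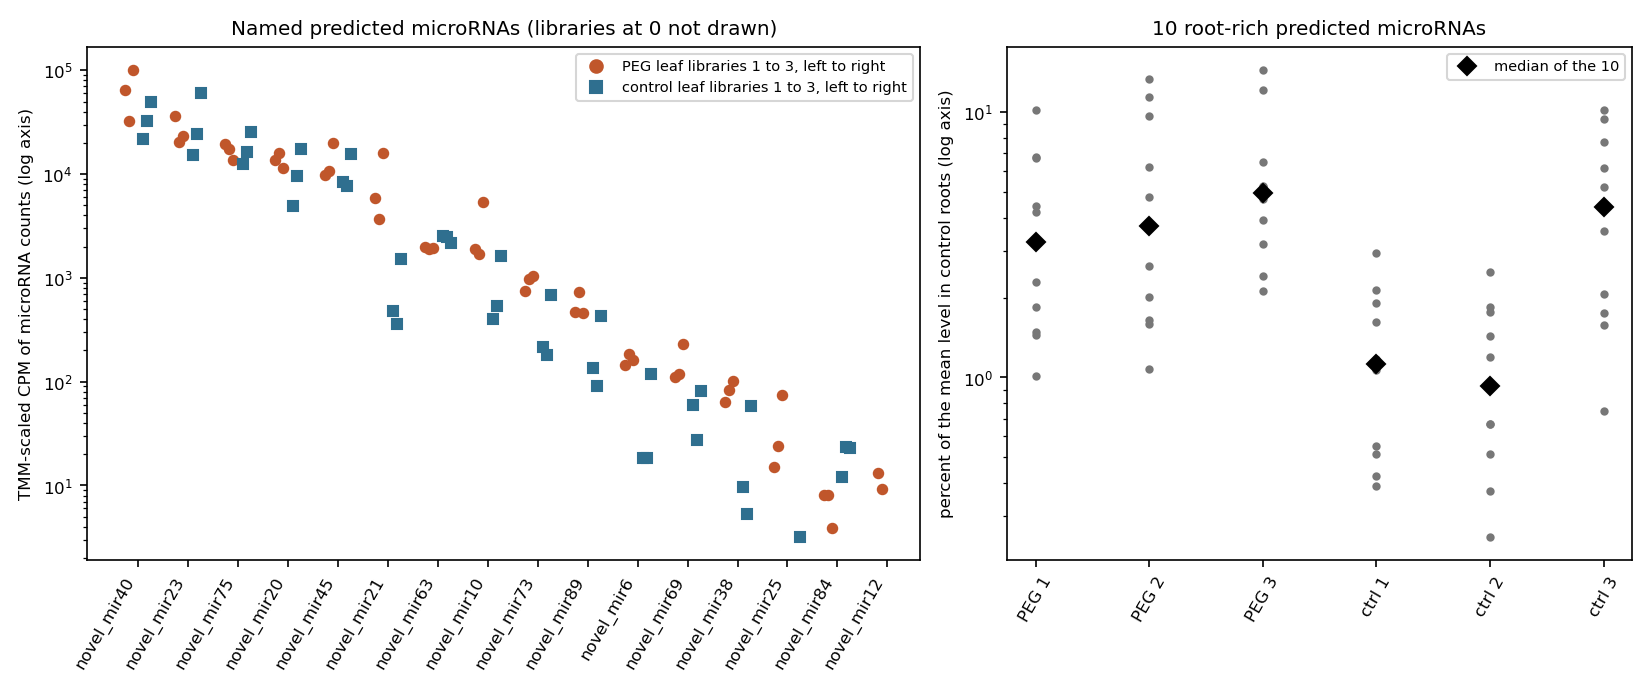
Left, level of each named predicted microRNA in each leaf library in TMM-scaled CPM on a log axis, with circles for PEG leaves and squares for control leaves. Right, level of 10 root-rich predicted microRNAs in each leaf library as a percent of their control root mean on a log axis, with diamonds for the median, which is 3.25% to 4.96% in PEG leaves and 4.39% in control leaf library 3 against 1.12% and 0.932% in the other control leaf libraries.

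Loci that lay lower in PEG leaves were few. novel_mir84 had 28, 28 and 14 counts in PEG leaves and 66, 93 and 71 in control leaves (log2 fold change -1.52, adjusted p = 0.296). novel_mir63 had 6856, 6458 and 6877 counts in PEG leaves and 14024, 9815 and 6733 in control leaves, which separate only after scaling (-0.31, adjusted p = 0.785). The most abundant predicted loci overlapped. novel_mir40 had 224168, 111493 and 358219 counts in PEG leaves and 119547, 130576 and 153536 in control leaves (0.93), novel_mir23 126714, 69686 and 82575 in PEG leaves and 84048, 97018 and 187465 in control leaves (-0.32). For novel_mir75 the log2 fold change was -0.09, for novel_mir20 0.34 and for novel_mir45 0.35.

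Most siRNA counts fell in siRNAs found in every leaf library. Of 15055 siRNAs, 9713, 8872 and 8782 were detected in PEG leaves and 9261, 9407 and 9711 in control leaves. Those detected in all 6 leaf libraries numbered 5239, and they held 90.2% to 95.4% of siRNA counts in each library. In these 5239, 3.53% had a log2 fold change beyond 1 in size, the median was 0.05, and 323 were higher and 308 lower in PEG leaves without overlap. Of the 10266 tested siRNAs 11.3% did not overlap (5.8% higher and 5.52% lower in PEG leaves), close to the 11.7% of all entries.

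Of the 5 most abundant siRNAs none passed. novel_sir13757 had 123356, 114779 and 97542 counts in PEG leaves and 162204, 145794 and 127485 in control leaves (log2 fold change -0.23). novel_sir15448 had 49070, 41802 and 65854 counts in PEG leaves and 44991, 43829 and 30485 in control leaves, overlapping in counts but not after scaling (0.54, adjusted p = 1). The widest spread was in novel_sir16047, with 86284, 58889 and 164555 counts in PEG leaves and 82231, 68015 and 98084 in control leaves (0.46, SE 0.51). novel_sir6423 stood at 0.11 with overlap. For novel_sir12465 there were 50815, 49687 and 55097 counts in PEG leaves and 51356, 67071 and 54586 in control leaves.

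Some siRNAs were found in 1 group only: 1800 had a count in PEG leaves and none in control leaves, and 2230 the other way. In all 3 PEG leaf libraries and no control leaf library there were 74, and the reverse held for 126. These were mostly rare, with a median mean count of 15 for the first set and 13.3 for the second, near the smallest count that is listed. Above a mean count of 30 there were 15 in the first set and 1 in the second, and the highest count was 510 in the first and 54 in the second. The sets were not tested as such.

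novel_sir14483 had 95, 123 and 271 counts in PEG leaves and 0, 0 and 0 in control leaves. Taking 9 counts in each control leaf library, it was at least 20.1-fold higher in PEG leaves, and in roots it had 43, 65 and 60 counts with PEG and 20, 63 and 0 without. novel_sir4579 had 88, 56 and 52 counts in PEG leaves and 0, 0 and 0 in control leaves, at least 8.01-fold higher. Neither passed over all entries (adjusted p = 0.703 each, edgeR). novel_sir15237, with 32, 14 and 11 counts in PEG leaves, and novel_sir13645, with 23, 14 and 21, were at 0 in control leaves too. On the lower side novel_sir4965 had 0, 0 and 0 counts in PEG leaves and 11, 20 and 13 in control leaves, at least 1.46-fold lower, and novel_sir2402 had 0, 0 and 0 in PEG leaves and 13, 12 and 14 in control leaves, at least 1.31-fold lower. novel_sir4301, novel_sir12710 and novel_sir13016 had the same form, with 12 to 25 counts in control leaves. These levels are so near the listing limit that the size of the drop is not known.

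A few siRNAs detected in all 6 leaf libraries differed by more, of which novel_sir16402 was among the 5 smallest p on the higher side and the others were chosen after their values were seen. novel_sir8104 had 568, 756 and 1795 counts in PEG leaves and 21, 26 and 102 in control leaves, a log2 fold change of 4.51 (SE 0.92, unadjusted p = 0.00256, adjusted p = 0.703, edgeR). It was at 0 in every root library, with PEG and without. novel_sir16402 had 429, 121 and 723 counts in PEG leaves and 44, 77 and 72 in control leaves (2.86), and it was also higher in PEG roots, with 632, 476 and 551 counts, than in control roots, with 29, 51 and 14. Lower in PEG leaves were novel_sir3401, with 139, 114 and 95 counts in PEG leaves and 271, 475 and 324 in control leaves (-1.46), and novel_sir11, with 334, 378 and 232 in PEG leaves and 785, 865 and 551 in control leaves (-1.06). In each of these the 3 PEG leaf libraries lay on one side of the 3 control leaf libraries, and none passed.

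**Figure D5:**
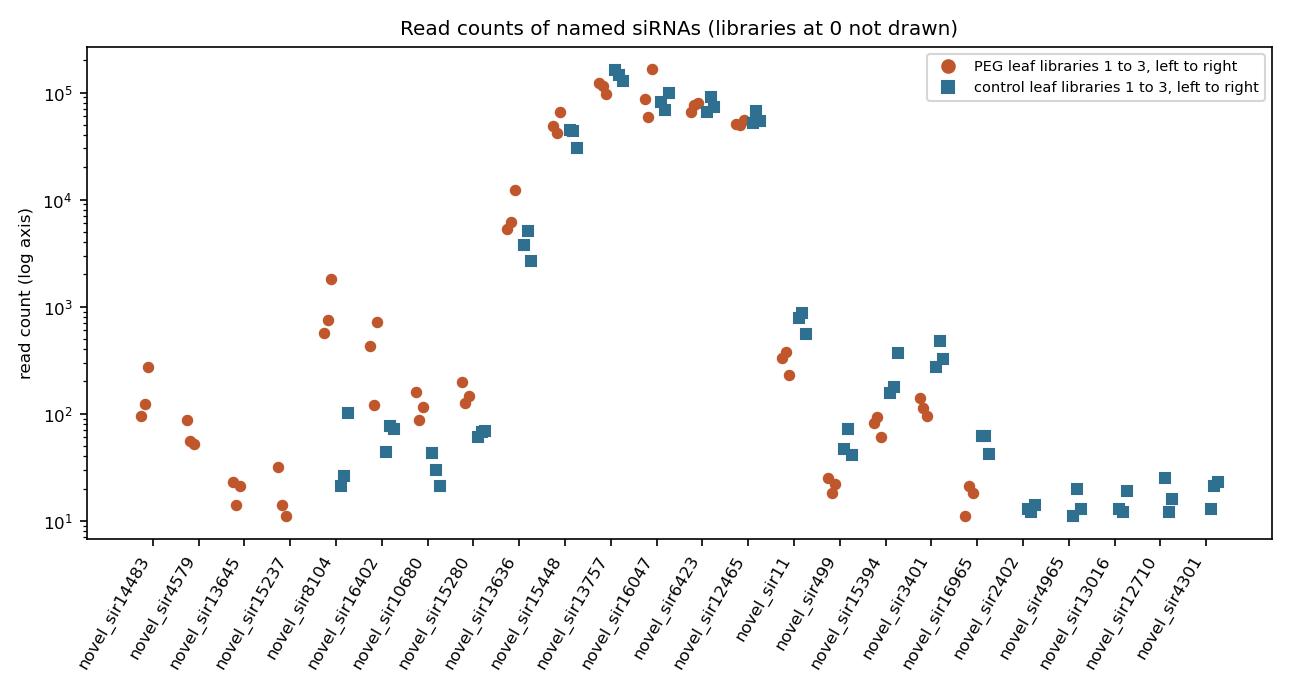
Read counts of the named siRNAs in each leaf library on a log axis, with circles for PEG leaves left of squares for control leaves and libraries at 0 not drawn. The siRNAs at the left have counts in PEG leaves and none in control leaves or lie higher in PEG leaves, those in the middle are the most abundant, and those at the right lie lower in PEG leaves or have no count there.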

How the data were processed

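Small RNA was sequenced from 12 libraries of sunflower leaves and roots, 3 in each of 4 groups, prepared per the labels with Trizol and BGI500 protocols. The authors deposited raw read counts per small RNA entry and the same values as TPM; the deposited TPM equalled the count scaled to its column total (CPM) within 0.0051 in 99.4% of cells and was used for this check alone. Bowtie and Bowtie2 2.2.9 appear in the submitters' processing notes, with no step given. How reads that match several names were assigned, the mapping settings, the genome build and the collection releases are not stated there, so no position or sequence is printed.

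Counts were analysed with edgeR 4.0.16 in R 4.3.3 (TMM, glmQLFit and glmQLFTest, a mean per group over 12 libraries, no replicate block), for entries that reached 10 counts in 3 or more libraries, with Benjamini-Hochberg adjustment over all of them. Family sums of known and predicted microRNAs (124) were fitted in the same way, with the quasi-likelihood interval at 95%. Class shares were compared with two-sided exact permutation tests (scipy 1.17.1). The fit over all entries was first run on simulated counts, with the same spread setting for every entry, to see that set fold changes came back. The family fits were not tested in this way. Alternatives were RLE scaling, library totals, other count minimums, DESeq2 1.42.0, limma voom 3.58.1, leaf libraries alone with and without a replicate block, zeros set to 9 and leaving out each leaf library; summing alternating pairs of names and a root check with no leaf filter were added after seeing the data.

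The members, role lists and family sums were chosen with earlier results of these data known. Values per library are given for known families that were called, did not overlap or were among the 8 most abundant; for the 8 highest and 8 lowest separated names with a mean leaf count of at least 10; for called, the 8 highest and 8 lowest separated and the 5 most abundant predicted microRNAs; and for the 5 siRNAs with the smallest p in each direction and the 5 most abundant. Others were chosen after their values were seen. Numbers shared by PEG and control libraries were not treated as pairs. Deviations from the group mean in libraries with the same number correlated at r of -0.354, -0.0830 and -0.163 over all entries. With 3 libraries a group, such values cannot exclude shared handling by number. Total counts of 30922418 to 33426228 per leaf library limit counting error. The precision of the edgeR fits rests on the spread within groups over all 12 libraries, roots included.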

Additional observations from a re-analysis of the deposited data

Results flagged for a closer look

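The siRNAs novel_sir4965 and novel_sir2402 were listed in control leaves and PEG roots but not in PEG leaves or control roots. They were flagged in a test of the leaf change against the root change, which called 215 of 10604 entries and 0 of 124 families. novel_sir4965 had 0, 0 and 0 counts in PEG leaves and 11, 20 and 13 in control leaves, but 11, 13 and 16 in PEG roots and 0, 0 and 0 in control roots, and the fitted leaf change minus the root change was -13.4 on the log2 scale (edgeR). novel_sir2402 had 0, 0 and 0 counts in PEG leaves and 13, 12 and 14 in control leaves, but 12, 13 and 22 in PEG roots and 0, 0 and 0 in control roots, with a fitted difference of -13.5. Both fitted values depend on groups at 0, where each listed 0 stands for 0 to 9 reads, and their size is not a measured fold. The direction in roots is not settled either. Control root library 3 had a TMM factor of 0.295, and 9 reads there would scale above the PEG root levels.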

How the results depend on the processing

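By name, the count of 0 calls held in edgeR under every setting but one: with zeros set to 9, 37 entries passed, while DESeq2 called 28 and limma voom 181. By family, 4 were called, against 15 in DESeq2, 1 with leaf libraries only and 1 with the TMM factors of all named entries, and 3 to 6 under the other settings that kept every library; leaving out each library in turn gave 0 to 25 families and 0 to 0 entries, and the cause was not tested. miR171 passed as lower with RLE scaling, with no count minimum, in DESeq2, with the replicate block and with known families alone. The replicate block with leaf libraries only gave 4 families and 0 entries, and whether the shared numbers mark pairs is not known. The difference in share of all counts, PEG minus control, ranged over the left-out libraries from -0.941 to 0.171 percentage points for known microRNAs, from 0.257 to 0.792 for predicted microRNAs and from -0.466 to -0.118 for siRNAs.

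Log2 fold changes near 0 changed sign. The miR5538 family stood at -0.14 with RLE scaling and DESeq2, -0.33 with no count minimum and with leaf libraries only, -0.26 with the block and -0.12 with known families alone. The miR398 family stood at -0.14 with RLE scaling and DESeq2, -0.027 with totals, -0.32, -0.33 and -0.32 with no minimum, a minimum of 50 and leaf libraries only, -0.33 with the block and -0.15 with known families alone. The miR167 family stood at -0.28, -0.18, -0.52, -0.53, -0.28, -0.52, -0.45, -0.062 and -0.27 with RLE, totals, no minimum, a minimum of 50, DESeq2, leaf libraries only, the block, zeros set to 9 and known families alone. The miR858 family stood at -0.0055 with RLE and DESeq2, at -0.067, -0.069 and -0.067 with no minimum, a minimum of 50 and leaf libraries only and at -0.11 with the block. The miR168 family stood at -0.18, -0.19, -0.18 and -0.21 with no minimum, a minimum of 50, leaf libraries only and the block, where novel_mir20 stood at -0.033, -0.039, -0.034 and -0.039 and novel_mir45 at -0.18, -0.19, -0.18 and -0.21. With the hairpin name left out the miR166 family stood at 0.019 and novel_mir75 at 0.069. With totals novel_sir6423 stood at -0.039 and novel_sir12465 at -0.14, and the last at -0.030, -0.045, -0.041, -0.063 and -0.00020 with a minimum of 50, leaf libraries only, the block, zeros set to 9 and alternating pairs summed.

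Over the left-out libraries the sign also turned for the miR166 family (up to 0.067), the miR398 family (-0.17 to 0.59), the miR858 family (-0.23 to 1.10), the miR159 family (-0.30 to 0.050), novel_mir23 (-0.66 to 0.43), novel_mir75 (-0.29 to 0.24), novel_mir20 (-0.0032 to 0.90), novel_sir16047 (-0.056 to 0.73) and novel_sir12465 (-0.057 to 0.079).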

Other observations

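Fragments of structural RNAs were outside the comparisons above. Ribosomal RNA entries held 0.331%, 0.453% and 0.220% of all counts in PEG leaves and 0.179%, 0.131% and 0.323% in control leaves, which overlapped (exact permutation p = 0.2, n = 3 each). Of the 43 tested snoRNA entries 0 were called, 35 had a positive log2 fold change and 10 lay higher in all PEG leaf libraries, against 6.21% of all 10604 entries, with a median of 0.62 against 0.03 over all entries. All 10 tested rRNA entries had a positive log2 fold change and 2 of them lay higher in all PEG leaf libraries. Control leaf library 3 held the highest rRNA share of the controls, as for the root-rich predicted microRNAs.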
